A study of Mus musculus with 48 samples.

Results

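The genes described here are 37 type I interferon response genes. They were followed through 13 ex vivo sub-clones of the mouse mammary carcinoma line 4T1 and through 2 parental reporter lines of 4T1. Each gene was read from the probe sets that are annotated to its symbol alone, and the probe set with the highest mean over all 48 arrays stood for the gene. Of the 37 genes, 35 were measured in this way. Ifi44 was named by no probe set used here, and Dtx3l lay only on a probe set shared with Parp9. A filter at the median of all probe sets (3.11 on the log2 scale) was passed by 32 of the 35 genes, and these were tested among 11562 genes of the 18963 that were measured. Mx1, Mx2 and Trim30a fell below it and are given as values only. Oas2 passed because of the sub-clones in which it was high, since its mean in the parental arrays was an intensity of 7.7, under the filter's 8.6. The other 31 reached the filter in the parental lines themselves.

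The sub-clones were grown in culture from tumors and lungs of BALB/c mice. The paper describes a selection of several days in 6-thioguanine, a drug that 4T1 cells withstand and host cells do not. It does not describe this step, or passage through a mouse, for the parental lines. The part of both in the differences from the parental lines was not tested. The sub-clones came from 4 settings. The 2 sub-clones MFP 1 and MFP 2 were grown from tumors of the mammary fat pad (MFP) taken at day 28, and carried GFP and firefly luciferase (GFP/fL). From tumors of the injected axillary lymph node (AxLN) there were 4, numbered 1 and 2 at day 7 and at day 14, which carried mCherry and Renilla luciferase (mCh/rL). From lung metastases of mice injected in the axillary node (AxLN-LuM) there were also 4, namely 1 at days 14, 36 and 43 and 5 at day 14, with mCh/rL. After injection into the tail vein, metastases of the lung (TV-LuM) gave 3, namely 1 at days 14 and 38 and 2 at day 14, for which the labels do not give the reporter. Each sub-clone had 3 arrays and MFP 1 had 4, and each parental line (mCh/rL and GFP/fL) had 4. The labels name no treatment of the cells. A sub-clone is a culture from 1 tumor or lung, so p-values of all tests on arrays (against the parental lines, within sites and between days) measure the spread between cultures of a sub-clone, not between mice. A number shared by sub-clones of different days names separate tissues. The titles mark 7 arrays as removed, which are all 3 of AxLN 1 day 14, all 3 of AxLN-LuM 5 day 14 and 1 of MFP 1, and these were kept here.

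Values are log2 intensities minus the mean of the parental arrays of that plate (mCh/rL and GFP/fL together), averaged over the arrays of a sub-clone. The 2 plates held 24 arrays each, and MFP 1 and the parental lines were on both. The array sums lay between 6414229 and 6658225, and the number of arrays limits the precision. The epithelial markers Epcam, Krt8, Krt18 and Cdh1 were above the filter, with intensities of at least 362.1, 1098.4, 1731.2 and 828.4 on all arrays. Of 10 leukocyte markers measured, 3 passed the filter (Cd68, Csf1r and Fcer1g), while Ptprc, the pan-leukocyte marker CD45, lay between 3.7 and 7.2. No endothelial marker of 5 passed. Of 7 fibroblast markers 2 did, Col1a1 (9.0 to 22.2) and Pdgfra (27.0 to 412.6, highest in MFP 1).

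Type I interferons are cytokines that cells release after sensing foreign or misplaced nucleic acid. They bind a receptor made of IFNAR1 and IFNAR2, whose kinases JAK1 and TYK2 pass the signal on to transcription factors, among them STAT2 and IRF9, which bind the interferon-stimulated response element in the promoters of target genes. The products include antiviral effectors, the nucleic acid sensors themselves, factors such as IRF7 that amplify the response, and the brake USP18.

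The core of that element was looked for in the promoters, which RefSeq gives for GRCm38.p6 as 250 bases before to 50 bases after a gene's start. The letters searched were GAAANNGAAA, which read TTTCNNTTTC on the other strand, and overlapping matches were counted. Of 28 listed genes with a promoter in the table, 11 (39.3%) held the core in at least 1 window, beside 1079 of 27025 genes of the whole table (3.99%). A match is a description of the letters and not evidence of a site. The stretches below are from members that hold the core and whose levels are followed below. Among the 12 genes with the widest ranges over the sub-clones, Ifit1, Oas3 and Bst2 held it. Cmpk2, Irf7, Oasl1, Xaf1 and Epsti1 had a promoter in the table without it. Zbp1, Usp18, Oas2 and Rtp4 had no promoter there. Rsad2, Isg15 and Ifit3, also shown, ranged over 3.06, 2.39 and 1.58. A link between the core and the range was not tested. Each is written 5′ to 3′ in the direction of its gene, and the capitals mark the GAAA or TTTC letters of the matches.
Isg15 (chr4:156200850-156200921, minus strand): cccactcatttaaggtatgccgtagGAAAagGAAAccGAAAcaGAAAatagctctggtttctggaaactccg
Ifit1 (chr19:34640760-34640838, plus strand): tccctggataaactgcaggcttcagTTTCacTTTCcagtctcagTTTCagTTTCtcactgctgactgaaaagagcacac
Oas3 (chr5:120777700-120777759, minus strand): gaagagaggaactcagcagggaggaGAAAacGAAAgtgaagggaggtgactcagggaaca
Rsad2 (chr12:26456538-26456597, minus strand): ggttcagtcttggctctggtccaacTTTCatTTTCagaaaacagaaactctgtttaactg
Bst2 (chr8:71537562-71537627, minus strand): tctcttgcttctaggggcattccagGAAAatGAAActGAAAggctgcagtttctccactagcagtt
Ifit3 (chr19:34583348-34583441, plus strand): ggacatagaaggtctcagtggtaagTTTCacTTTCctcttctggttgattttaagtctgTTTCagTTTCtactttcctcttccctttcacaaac
Isg15 held 3 overlapping matches, Bst2 2 overlapping matches, and Ifit1 and Ifit3 2 separate ones each.

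All 13 sub-clones had a median over the 35 genes above that of the parental lines, and they fell far apart. The median was highest in AxLN-LuM 1 day 36, at 2.04 (4.11-fold), with array medians of 1.95 to 2.09, and in AxLN 2 day 7, at 2.00 (4.00-fold), with array medians of 1.96 to 2.13. AxLN 2 day 14 followed at 1.63. The other 10 sub-clones lay at or below 0.93, and the lowest was AxLN-LuM 1 day 14, at 0.24. Between them were AxLN-LuM 5 day 14 (0.93), TV-LuM 1 day 38 (0.92), MFP 1 (0.85), MFP 2 (0.81), TV-LuM 1 day 14 (0.67), AxLN 1 day 7 (0.53), AxLN 1 day 14 (0.51), AxLN-LuM 1 day 43 (0.44) and TV-LuM 2 day 14 (0.40). The arrays of the 3 highest sub-clones did not overlap with those of the other 10. Neighbours such as MFP 1 and MFP 2, or AxLN 1 day 7 and AxLN 1 day 14, overlapped in their array medians. Over all genes tested, the median difference lay between -0.04 and 0.04 in every sub-clone. The median of AxLN-LuM 1 day 14 was close to 0 (0.03) when the mCh/rL line alone was the baseline. MFP 1, the sub-clone on both plates, had medians of 0.81 on plate 1 and 0.86 on plate 2. Single genes could differ more between its plates. Rsad2, a dim gene, had intensities in MFP 1 of 22.1 and 25.4 on plate 1 and of 14.5 and 13.4 on plate 2.

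**Figure D1:**
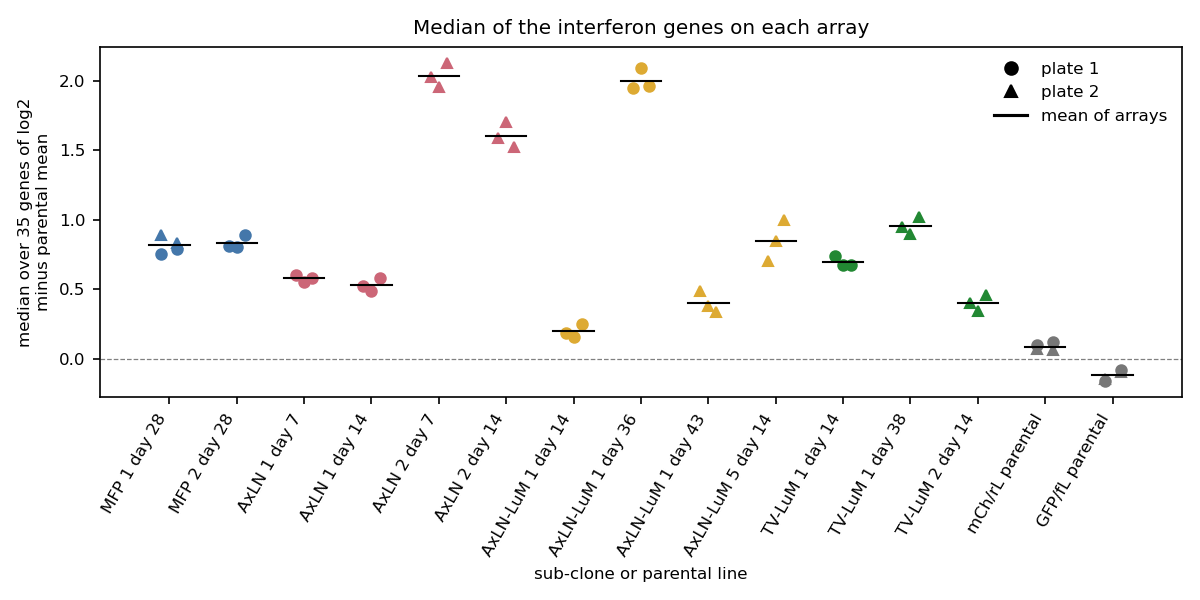
Median over the 35 measured interferon genes of log2 intensity minus the parental mean of the same plate, for each array of the 13 sub-clones (left) and the 2 parental lines (right). Points are arrays, circles are plate 1 and triangles plate 2, and bars are means over the arrays. AxLN 2 day 7, AxLN 2 day 14 and AxLN-LuM 1 day 36 stand above the rest, and all arrays of the sub-clones lie above 0.16.

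Counted gene by gene with limma at a Benjamini-Hochberg adjusted p under 0.05 over all genes tested, most of the 32 genes were higher than in the parental lines. In AxLN 2 day 7 all 32 were higher, where 24.3% of all genes tested were, and in AxLN-LuM 1 day 36 31 were (22.2% of all genes). The counts were 30 in AxLN 2 day 14 (24.6%), 30 in MFP 2 (18.9%), 28 in MFP 1 (26%), 25 in AxLN 1 day 7 (22%) and 23 in AxLN 1 day 14 (17%). None of the 32 was called lower in these 7 sub-clones. In TV-LuM 1 day 38, 27 genes were higher (23.4%) and none was called lower. AxLN-LuM 5 day 14 had 27 higher (35.6%) and only Epsti1 lower (26.7% of all genes were lower), and TV-LuM 1 day 14 had 26 higher (19.3%) and Ifit3 lower (21.2%). In TV-LuM 2 day 14, 19 were higher (26.6%) and Oasl1 was lower (26.9%). AxLN-LuM 1 day 43 had 20 higher (19%) and Oasl1, Trim25 and Lgals3bp lower (22.5%). AxLN-LuM 1 day 14 came nearest to all genes, with 14 higher (23.5%) and 5 lower (21.7%), namely Ifit2, Cmpk2, Parp14, Ifi35 and Bst2. All these comparisons share the parental arrays, so they are not independent of each other. Without Oas2 the counts of genes higher were 31 in AxLN 2 day 7, 29 in AxLN 2 day 14 and 30 in AxLN-LuM 1 day 36, and were the same in the other 10 sub-clones.

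Against the mean of both parental lines, Usp18, Irf7, Rtp4, Oasl2, Isg15 and Ifih1 were called higher in all 13 sub-clones. The share of all genes that were is not given. Irf7, the transcription factor that amplifies interferon production, had intensities of 481.5, 473.2 and 476.8 in AxLN 2 day 7 and of 377.8, 392.3 and 370.8 in AxLN-LuM 1 day 36, against 13.9 to 27.4 (median 17.8) in the 8 parental arrays. The groups did not overlap. On the log2 scale Irf7 was higher by 4.64 in AxLN 2 day 7 (SE 0.15, adjusted p = 4.05e-23) and by 4.44 in AxLN-LuM 1 day 36 (adjusted p = 2.95e-22). AxLN 2 day 14 was at 2.94, TV-LuM 1 day 38 at 2.35 and AxLN-LuM 5 day 14 at 2.26. The MFP sub-clones (1.56 and 1.33), AxLN 1 day 7 (1.43), TV-LuM 2 day 14 (1.35), TV-LuM 1 day 14 (0.97) and AxLN 1 day 14 (0.68) were lower in that order. The least change was in AxLN-LuM 1 day 14 (0.55, adjusted p = 0.00281) and AxLN-LuM 1 day 43 (0.53, adjusted p = 0.00401), whose arrays reached down to 21.1 and 22.6, within the parental range. With the mCh/rL line alone as baseline neither of these 2 passed the test. Irf7 lies at chr7:141263183-141266499 (GRCm38).

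Usp18, the protease that removes ISG15 from proteins and restrains receptor signaling, had the highest single value of the set. Its intensities were 571.0, 628.7 and 587.9 in AxLN 2 day 7, against 6.8 to 18.4 (median 11.7) in the parental arrays, a log2 difference of 5.42 (SE 0.18, adjusted p = 8.95e-23). The parental level lay close to the filter, so a fold change of this gene rests on dim parental values. AxLN-LuM 1 day 36 (4.84), AxLN 2 day 14 (4.72), TV-LuM 1 day 38 (4.08), MFP 2 (3.58) and AxLN-LuM 5 day 14 (3.52) were also over 3, and AxLN 1 day 7 (2.95), AxLN 1 day 14 (2.77), TV-LuM 1 day 14 (2.25), MFP 1 (1.65) and AxLN-LuM 1 day 43 (1.49) lay below. AxLN-LuM 1 day 14 and TV-LuM 2 day 14 were both at 1.07. Usp18 was the gene in which the 2 MFP sub-clones differed most, with intensities of 23.9 to 53.2 in MFP 1 and 94.7 to 118.4 in MFP 2.

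The other regulators had narrower ranges. Isg15, the ubiquitin-like protein that USP18 removes, was highest in TV-LuM 1 day 38, with intensities of 449.9, 450.5 and 439.5, against 51.2 to 106.6 (median 73.7) in the parental arrays (difference 2.67, adjusted p = 7.29e-23), and was lowest in AxLN-LuM 1 day 14 (0.28, adjusted p = 0.00928). The intensities in AxLN-LuM 1 day 14 were 106.7, 91.3 and 89.3. On the plate 1 arrays of mCh/rL, its own parental line, they were 93.9 and 94.2. The call of Isg15 there thus rests on the baseline of both lines. The range of Isg15 over the sub-clones was 2.39. Irf9, a DNA-binding factor of the pathway, spanned 0.16 in AxLN-LuM 1 day 43 to 2.96 in AxLN 2 day 7. Stat2, its partner in the nucleus, spanned 0.01 in TV-LuM 2 day 14 to 1.79 in AxLN-LuM 1 day 36. Each was called higher in 12 of 13 sub-clones.

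**Figure D2:**
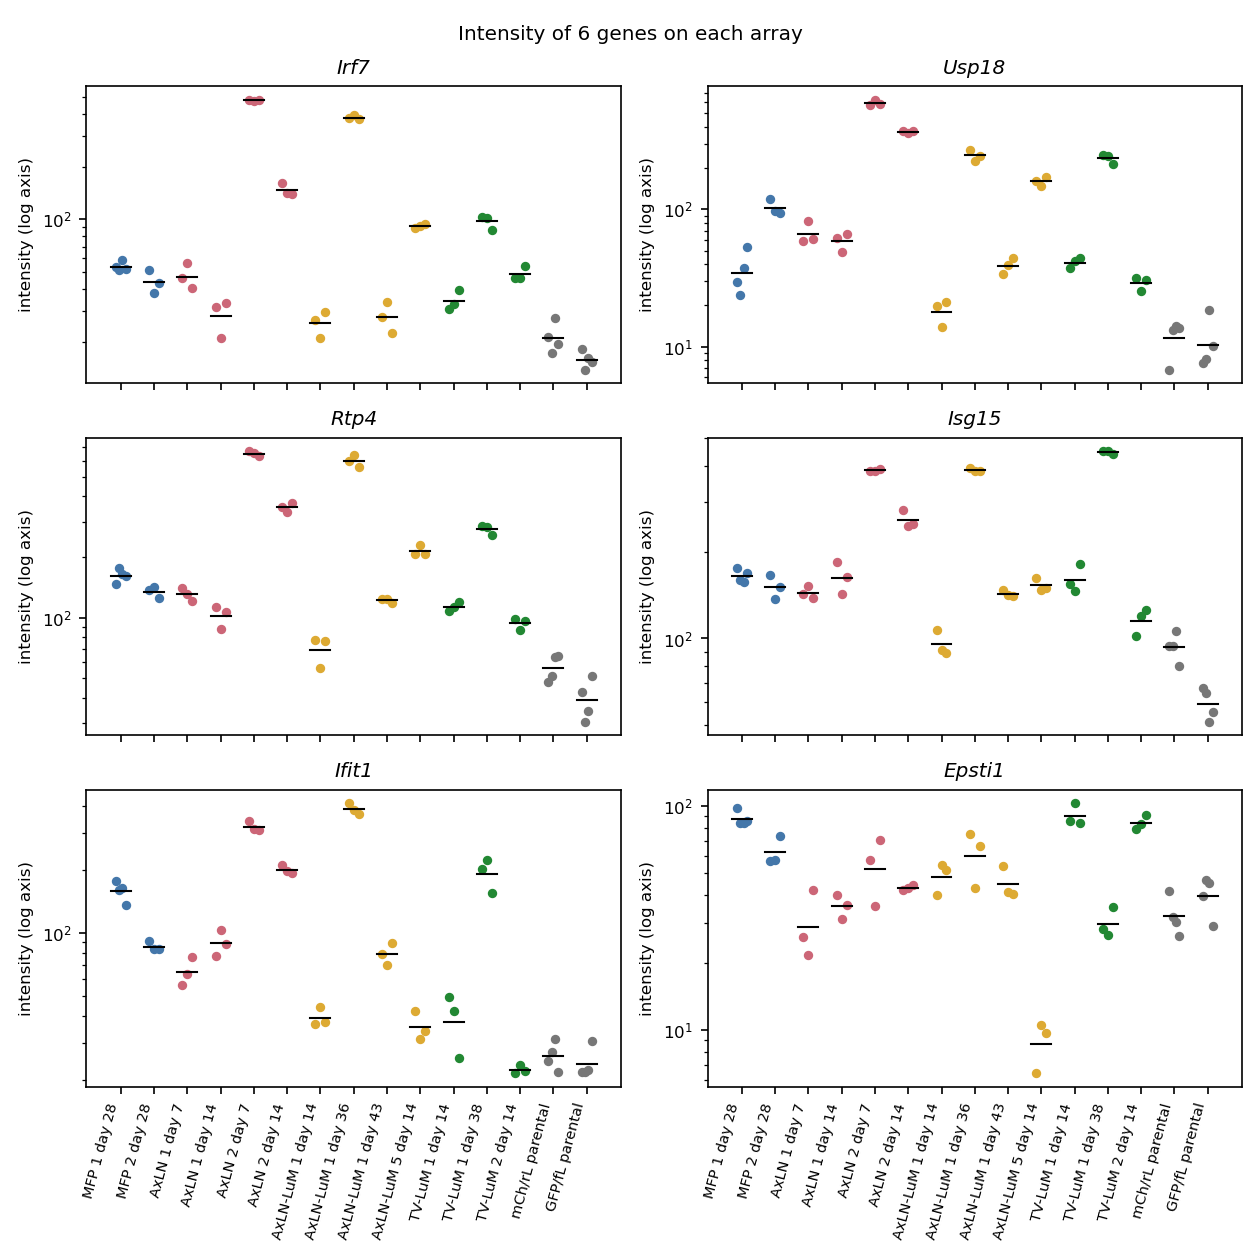
Intensity on each array (log axis) of Irf7, Usp18, Rtp4, Isg15, Ifit1 and Epsti1 in the 13 sub-clones and, at the right, the 2 parental lines. Points are arrays and bars geometric means, with blue for MFP, red for AxLN, yellow for AxLN-LuM, green for TV-LuM and grey for the parental lines. AxLN 2 day 7 and AxLN-LuM 1 day 36 are high for Irf7, Usp18, Rtp4 and Ifit1, while Epsti1 is at 6.4 to 10.5 in AxLN-LuM 5 day 14 and at 26.4 or more on the parental arrays.

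Among the sensors of nucleic acid, Zbp1 varied most. Zbp1 encodes a sensor of Z-form nucleic acid that can start necroptosis. Its intensities were 458.1, 510.2 and 515.7 in AxLN 2 day 7, against 7.0 to 18.9 (median 13.2) in the parental arrays, a difference of 5.21 (SE 0.20, adjusted p = 5.61e-21). AxLN-LuM 1 day 36 (4.14), AxLN 2 day 14 (3.91) and MFP 2 (3.25) came next, then TV-LuM 1 day 38 (2.82), AxLN-LuM 5 day 14 (2.26), AxLN 1 day 7 (2.21), TV-LuM 1 day 14 (2.12), AxLN-LuM 1 day 43 (1.98), TV-LuM 2 day 14 (1.96), MFP 1 (1.94) and AxLN 1 day 14 (1.93). Only AxLN-LuM 1 day 14 was not called (0.26, adjusted p = 0.303), and its arrays, at 10.7 to 18.4, lay within the parental range. The RNA sensors Ddx58 (RIG-I) and Ifih1 (MDA5) and their relative Dhx58 (LGP2) had narrower ranges of 1.79, 1.46 and 1.83. Ddx58 was called higher in 12 sub-clones, Ifih1 in 13 and Dhx58 in 11. Eif2ak2, the RNA-activated kinase PKR, ranged over 0.83 and was called in 6.

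The widest range of all was that of Cmpk2, a mitochondrial nucleotide kinase, at 5.53. Its intensities were 335.3, 373.5 and 361.9 in AxLN-LuM 1 day 36 and 410.2, 405.0 and 390.6 in TV-LuM 1 day 38, against 10.7 to 31.1 (median 19.4) in the parental arrays, which gave differences of 4.46 and 4.33. In AxLN-LuM 1 day 14 the intensities were 8.0, 8.1 and 7.2, all below the parental range, a difference of -1.06 (SE 0.17, adjusted p = 2.3e-06). These 3 lie under the filter's 8.6, so the size of this difference, and with it the width of the range and its rank, rests on dim values. The remaining values were 3.59 in AxLN 2 day 7, 3.43 in AxLN 2 day 14, 2.73 in AxLN 1 day 14, 2.55 in MFP 1, 2.32 in MFP 2, 1.69 in AxLN-LuM 1 day 43, 1.18 in AxLN 1 day 7, 1.14 in AxLN-LuM 5 day 14, 1.06 in TV-LuM 1 day 14 and -0.01 in TV-LuM 2 day 14. Rsad2 (viperin), which makes an antiviral nucleotide, is the neighbour of Cmpk2 on chromosome 12 (chr12:26442743-26456452, with Cmpk2 at chr12:26469117-26479837). Like Cmpk2 it was highest in AxLN-LuM 1 day 36 (2.81) and TV-LuM 1 day 38 (2.72) and lowest in AxLN-LuM 1 day 14 (-0.25).

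The IFIT genes, whose proteins bind foreign RNA and stop its translation, did not move alike. Ifit1 had intensities of 415.2, 384.3 and 367.1 in AxLN-LuM 1 day 36, against 21.7 to 31.3 (median 23.5) in the parental arrays, a difference of 4.04 (SE 0.16, adjusted p = 2.62e-20). It was at 3.62 in AxLN 2 day 7, 2.94 in AxLN 2 day 14, 2.87 in TV-LuM 1 day 38, 2.67 in MFP 1, 1.92 in AxLN 1 day 14, 1.86 in MFP 2, 1.61 in AxLN-LuM 1 day 43 and 1.46 in AxLN 1 day 7. Lower down were AxLN-LuM 1 day 14 (0.74), TV-LuM 1 day 14 (0.67), AxLN-LuM 5 day 14 (0.45) and TV-LuM 2 day 14 (-0.23, adjusted p = 0.244). Ifit2 ranged over 1.46 and was called higher in 6 sub-clones and lower in 1. Ifit3 ranged over 1.58, was called higher in 1 sub-clone and lower in 1, and was at 0.18 in AxLN-LuM 1 day 36, where Ifit1 was at its highest. Both promoter stretches printed above for Ifit1 and Ifit3 hold 2 copies of the response element core.

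The oligoadenylate synthetases form activators of RNase L, and the OASL genes are their relatives. Oas3 had intensities of 173.1 to 211.1 in AxLN 2 day 7, against 11.4 to 18.5 (median 14.6) in the parental arrays, a difference of 3.64 (adjusted p = 5.54e-19). It was at 2.65 in AxLN-LuM 1 day 36, 2.04 in AxLN 2 day 14 and 1.89 in AxLN-LuM 5 day 14, and between -0.26 (AxLN-LuM 1 day 14) and 0.82 (TV-LuM 1 day 14) in the other 9, with 0.78 in TV-LuM 1 day 38, 0.70 in AxLN-LuM 1 day 43, 0.64 in MFP 2, 0.51 in AxLN 1 day 7, 0.37 in AxLN 1 day 14, 0.27 in MFP 1 and -0.12 in TV-LuM 2 day 14. Oas2, next to Oas3 on chromosome 5, had intensities of 74.3 to 93.6 in AxLN 2 day 7, 16.5 to 41.0 in AxLN-LuM 1 day 36 and 22.6 to 24.4 in AxLN 2 day 14, against 4.9 to 10.3 in the parental arrays. It passed the filter through these 3 sub-clones, so its calls there are no independent result, and its differences of 3.26, 1.91 and 1.46 stand over a parental level under the filter. In the other 10 sub-clones the difference lay between -0.30 (TV-LuM 1 day 38) and 0.24 (AxLN 1 day 7), with AxLN-LuM 1 day 43 at 0.20, AxLN-LuM 1 day 14 at 0.12, AxLN 1 day 14 at 0.02, TV-LuM 1 day 14 at -0.03 and MFP 1, MFP 2, AxLN-LuM 5 day 14 and TV-LuM 2 day 14 all at -0.10. The dim Mx2, an antiviral GTPase, had its 3 highest values in the same 3 sub-clones. They were 3.06 in AxLN 2 day 7, 2.43 in AxLN-LuM 1 day 36 and 1.90 in AxLN 2 day 14. Mx2 had no value over 0.96 elsewhere. Mx1, its neighbour on chromosome 16, was dim on all arrays and ranged over 0.65.

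Oasl1 had another order. It was highest in TV-LuM 1 day 38, with intensities of 788.2, 752.7 and 763.4, against 64.5 to 88.0 (median 77.8) in the parental arrays, a difference of 3.31 (SE 0.11, adjusted p = 7.29e-23). It followed with 2.41 in AxLN 2 day 14, 2.37 in AxLN-LuM 1 day 36, 1.94 in AxLN 1 day 14, 1.62 in MFP 2, 1.60 in AxLN 2 day 7, 1.34 in MFP 1, 0.84 in AxLN 1 day 7, 0.58 in AxLN-LuM 5 day 14, 0.30 in AxLN-LuM 1 day 14 and -0.24 in TV-LuM 1 day 14. It fell by 0.72 in AxLN-LuM 1 day 43 (adjusted p = 2.08e-06) and by 0.75 in TV-LuM 2 day 14 (adjusted p = 4.58e-07), where all arrays lay below the parental range. Oasl2, the neighbouring gene, was higher in all 13 sub-clones, from 0.76 in AxLN-LuM 1 day 14 to 3.87 in AxLN 2 day 7.

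Rtp4, a chaperone of receptor transport that is also an interferon-induced inhibitor of viruses, followed the rest of the set most closely. It had intensities of 669.7, 656.8 and 632.7 in AxLN 2 day 7 and of 601.5, 638.7 and 562.0 in AxLN-LuM 1 day 36, against 30.5 to 64.9 (median 49.7) in the parental arrays. The differences were 3.82 in AxLN-LuM 1 day 36, 3.65 in AxLN 2 day 7, 2.76 in AxLN 2 day 14, 2.40 in TV-LuM 1 day 38, 2.04 in AxLN-LuM 5 day 14, 1.79 in MFP 1, 1.67 in MFP 2, 1.62 in AxLN 1 day 7, 1.42 in TV-LuM 1 day 14, 1.26 in AxLN 1 day 14, 1.23 in AxLN-LuM 1 day 43, 0.85 in TV-LuM 2 day 14 and 0.71 in AxLN-LuM 1 day 14. All 13 were called. Xaf1, a pro-apoptotic antagonist of XIAP, was at 3.47 in AxLN 2 day 7, 3.21 in AxLN-LuM 1 day 36, 2.65 in AxLN 2 day 14, 2.36 in AxLN-LuM 5 day 14 and 1.90 in TV-LuM 1 day 38. Its other values were 1.34 in TV-LuM 1 day 14, 1.33 in TV-LuM 2 day 14, 1.21 in AxLN 1 day 7, 1.17 in MFP 1, 1.00 in MFP 2, 0.57 in AxLN 1 day 14, 0.34 in AxLN-LuM 1 day 43 and -0.15 in AxLN-LuM 1 day 14, and the last 2 did not pass the test.

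Bst2 (tetherin), which holds budding viruses at the cell surface, had intensities of 449.9, 431.7 and 432.6 in AxLN 2 day 7, against 49.2 to 94.2 (median 67.8) in the parental arrays. In AxLN-LuM 1 day 14 it had 33.8, 42.4 and 43.9, below the parental range. The differences were 2.75 in AxLN 2 day 7, 2.13 in AxLN-LuM 1 day 36, 1.80 in AxLN-LuM 5 day 14, 1.66 in AxLN 2 day 14, 1.30 in MFP 2, 1.20 in TV-LuM 1 day 14, 0.95 in AxLN 1 day 14, 0.78 in TV-LuM 1 day 38, 0.60 in TV-LuM 2 day 14, 0.48 in AxLN 1 day 7, 0.44 in both MFP 1 and AxLN-LuM 1 day 43, and -0.75 in AxLN-LuM 1 day 14 (adjusted p = 2.2e-07). All passed the test, although with the mCh/rL line alone as baseline Bst2 in AxLN 1 day 7 did not (0.17, adjusted p = 0.296). Among the other members, the ADP-ribosyltransferases Parp14, Parp9 and Parp12 ranged over 2.84, 1.67 and 1.16, the E3 ligases Herc6 and Trim25 over 2.05 and 1.09, and the secreted glycoprotein Lgals3bp over 2.39. Samd9l, Helz2 and Ifi35 ranged over 1.55, 1.47 and 1.30. Trim30a, below the filter, was highest in AxLN 2 day 7 (2.10) and lowest in TV-LuM 1 day 14 (-0.21).

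Epsti1, first known as a gene induced in breast cancer cells by stromal fibroblasts, stood apart from the rest. Its intensities were 6.4, 10.5 and 9.7 in AxLN-LuM 5 day 14, against 26.4 to 46.5 (median 35.8) in the parental arrays, a difference of -1.89 (SE 0.21, adjusted p = 2.13e-09). These arrays are marked as removed, and their values lie around the filter's 8.6. The size of this difference, and with it the width of the range, thus rests on dim values. Epsti1 was highest in TV-LuM 2 day 14 (1.39), MFP 1 (1.30) and TV-LuM 1 day 14 (1.19). AxLN 2 day 7 (0.71), MFP 2 (0.65) and AxLN-LuM 1 day 36 (0.59) also passed the test, which Epsti1 in MFP 2 no longer did with the GFP/fL line alone as baseline (0.53, adjusted p = 0.107). The other values, none of which did, were 0.48 in AxLN-LuM 1 day 43, 0.43 in AxLN 2 day 14, 0.29 in AxLN-LuM 1 day 14, -0.11 in TV-LuM 1 day 38, -0.15 in AxLN 1 day 14 and -0.46 in AxLN 1 day 7. Across the 13 sub-clones Epsti1 had a Pearson r of -0.015 with the mean of the other members above the filter. For the 32 members this r had a median of 0.858, from -0.015 to 0.981 for Rtp4, and 21 of 32 were above 0.8. Of the 11530 other genes tested, 26 (0.225%) had an r above 0.8 with the mean of the members, and their median r was -0.037. These correlations are across 13 sub-clones that share parental arrays and plates and are given as a description.

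**Figure D3:**
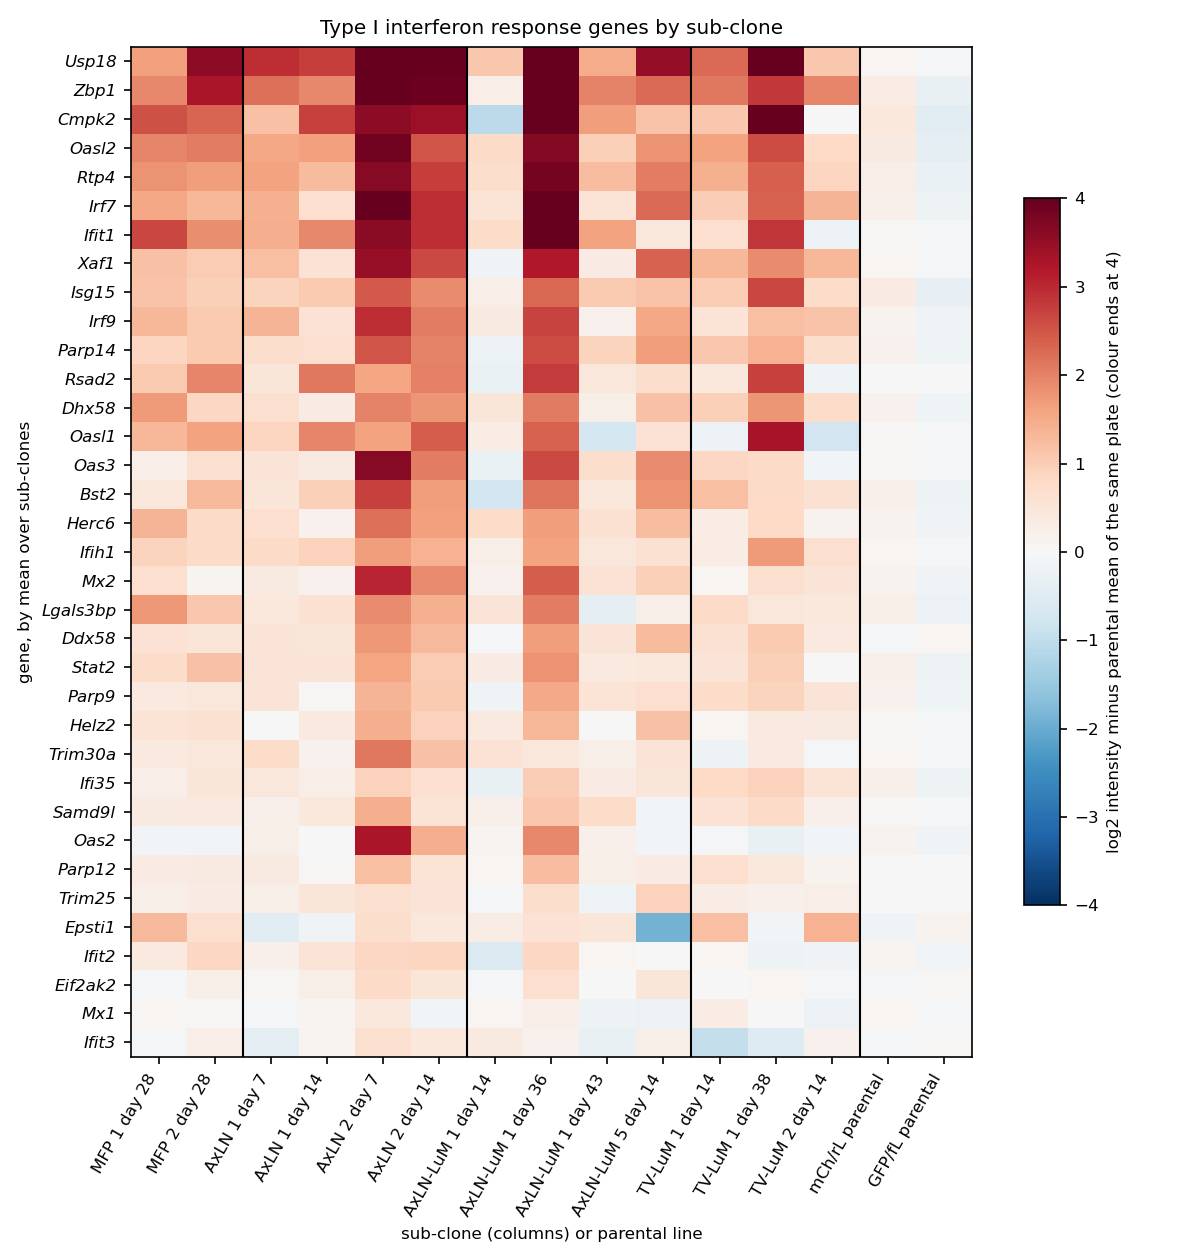
Log2 intensity minus the parental mean of the same plate for the 35 measured genes (rows, ordered by their mean over sub-clones) in the 13 sub-clones and the 2 parental lines (columns). Red is above and blue below the parental mean, and values beyond 4 share the end colour. AxLN 2 day 7, AxLN 2 day 14 and AxLN-LuM 1 day 36 are red in most rows, and AxLN-LuM 1 day 14 is pale or blue.

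Sub-clones of 1 site differed from each other in most of the genes in AxLN, AxLN-LuM and TV-LuM, and in 14 of 32 in MFP. By a moderated F test on the arrays, 31 of the 32 genes differed among the AxLN sub-clones, where 66.5% of all genes did, and 31 of 32 among the AxLN-LuM sub-clones, where 79.5% did. Among TV-LuM sub-clones 27 did (62.7% of all genes), and among MFP sub-clones the 14 stood beside 39.5% of all genes. Without Oas2 the counts were 30 of 31 for AxLN and for AxLN-LuM, 27 for TV-LuM and 14 for MFP. Ifit3 was the gene not called among AxLN and among AxLN-LuM sub-clones, with adjusted p-values of 0.0796 and 0.24. Without the arrays marked as removed the counts were 32 for AxLN, 30 for AxLN-LuM and 13 for MFP. The shares of all genes called without these arrays are not given, so nothing about the set is read from these counts. The share of all genes called was high in these tests, and the sizes of the differences follow.

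In the AxLN group the split ran between the numbers 1 and 2. The 2 sub-clones numbered 2 had medians of 2.00 and 1.63, and the 2 numbered 1 had 0.53 and 0.51. All 35 genes were higher in AxLN 2 day 7 than in AxLN 1 day 7, by a median of 1.47, and 33 of 35 were higher in AxLN 2 day 14 than in AxLN 1 day 14, by a median of 0.83. Sub-clones numbered 1 were hybridized on plate 1 and those numbered 2 on plate 2, so the number and the plate cannot be told apart in the AxLN group.

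The difference between the day 14 and the day 7 sub-clone was not the same under the 2 AxLN numbers. Each of the 4 is a single sub-clone from its own tumor, so the interaction compares these 4 sub-clones and not the days. In it, 21 of 32 genes passed the test (42.5% of all genes; 20 of 31 without Oas2), and in all 21 the difference of day 14 minus day 7 was lower under number 2. Under number 2, 32 of 35 genes were higher at day 7, by a median of 0.55, and under number 1, 17 of 35 were. Cmpk2 gives the largest contrast of the 12 genes with the widest ranges, with day 14 minus day 7 at -0.17 under number 2 and 1.55 under number 1 (interaction -1.71, SE 0.25, adjusted p = 1.16e-06). Bst2 differed by -1.09 under number 2 and by 0.47 under number 1 (interaction -1.56, adjusted p = 8.73e-10). Irf7 was lower at day 14 under both numbers, by -1.70 under number 2 and -0.75 under number 1 (interaction -0.95, adjusted p = 0.000848). The 3 arrays of AxLN 1 day 14 are among those marked as removed, and without them no such interaction can be computed.

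Among the AxLN-LuM sub-clones, AxLN-LuM 1 day 36 was above AxLN-LuM 1 day 14 in 33 of 35 genes, by a median of 1.74, and these shared plate 1. It was above AxLN-LuM 1 day 43 in all 35, by a median of 1.69, and above AxLN-LuM 5 day 14 in 32 of 35, by 1.00. AxLN-LuM 5 day 14 had 27 of 35 genes above AxLN-LuM 1 day 14, although both are from day 14. AxLN-LuM 1 day 43 and AxLN-LuM 5 day 14 were on plate 2, so their gaps from the plate 1 sub-clones cross plates. All arrays of AxLN-LuM 5 day 14 are among those marked as removed. The 3 numbered 1 thus ran from 0.24 at day 14 to 2.04 at day 36 and 0.44 at day 43, and they are no time course, since each came from a separate lung. In the TV-LuM group, TV-LuM 1 day 38 was above TV-LuM 1 day 14 in 26 of 35 genes, by a median of 0.44, and above TV-LuM 2 day 14 in 30, by 0.57. TV-LuM 1 day 14 was on plate 1, and TV-LuM 1 day 38 and TV-LuM 2 day 14 were on plate 2. The largest gaps there were in Cmpk2, at 4.33 in TV-LuM 1 day 38 against 1.06 and -0.01 in the 2 day 14 sub-clones, and in Oasl1, at 3.31 against -0.24 and -0.75. The 2 MFP sub-clones had 16 of 35 genes higher in MFP 1 and a median difference of -0.04, and Usp18 (1.65 in MFP 1, 3.58 in MFP 2) and Zbp1 (1.94 in MFP 1, 3.25 in MFP 2) differed most.

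**Figure D4:**
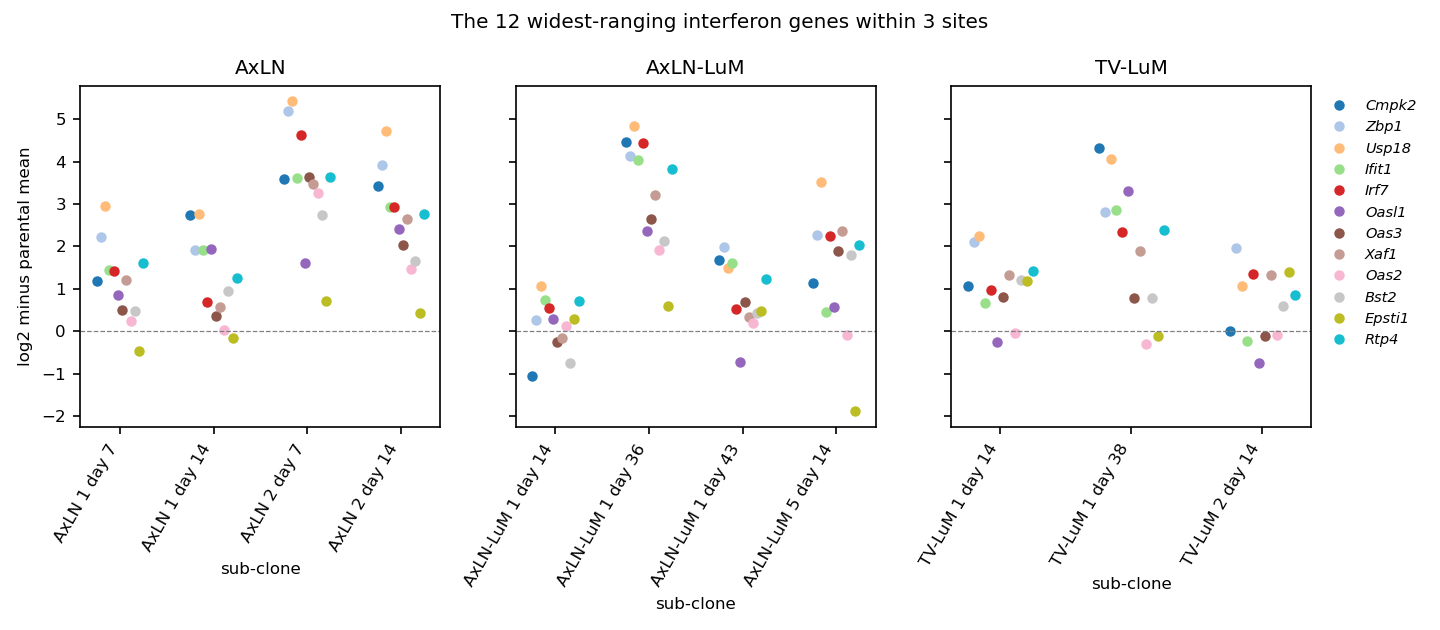
The 12 interferon genes with the widest range over the sub-clones, as log2 intensity minus the parental mean (vertical axis), in each sub-clone of AxLN, AxLN-LuM and TV-LuM (horizontal axis), with 1 colour for each gene. Most genes lie higher in AxLN 2 than in AxLN 1, in AxLN-LuM 1 day 36 than in the other AxLN-LuM sub-clones, and in TV-LuM 1 day 38 than at day 14.

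With sub-clones as replicates, limma called 0 of the 32 genes in each of the 6 comparisons of sites, and 0 of 11562 genes (0%) in all of them. At an unadjusted p under 0.05 there were 2 members, Ifit2 and Ifit3, in TV-LuM minus AxLN, and 0 in the other 5 comparisons. The 2 are 6.25% of the 32, beside 7.68% of all genes in that comparison. The lowest adjusted p of a member was 0.623. The median differences over the 35 genes were 0.30 for AxLN minus MFP, 0.03 for AxLN-LuM minus MFP, -0.38 for AxLN-LuM minus AxLN, -0.12 for TV-LuM minus AxLN-LuM, -0.56 for TV-LuM minus AxLN and -0.12 for TV-LuM minus MFP. Irf7 shows the spread behind them, at 2.42 ± 1.75 over the 4 AxLN sub-clones, 1.95 ± 1.85 over the 4 AxLN-LuM, 1.56 ± 0.71 over the 3 TV-LuM and 1.44 ± 0.16 over the 2 MFP sub-clones (SD over sub-clones). All MFP sub-clones carry GFP/fL and all AxLN and AxLN-LuM sub-clones mCh/rL, so site and reporter line cannot be told apart in AxLN minus MFP and AxLN-LuM minus MFP. The sign of the median differed between the plates in 4 of the 6 comparisons. AxLN-LuM minus AxLN had a median of 0.41 on plate 1 and -1.18 on plate 2, and AxLN minus MFP had -0.19 on plate 1 and 0.89 on plate 2, each from 1 or 2 sub-clones a side. The others on plates 1 and 2 were 0.19 and -0.07 for AxLN-LuM minus MFP, -0.52 and 0.09 for TV-LuM minus AxLN-LuM, -0.02 and -1.01 for TV-LuM minus AxLN, and -0.35 and -0.02 for TV-LuM minus MFP.

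The parental lines differed from each other in part of the set. In mCh/rL minus GFP/fL, 13 of 32 genes passed the test, all higher in mCh/rL, where 22.1% of all genes tested passed in either direction. They were Cmpk2 (0.84), Oasl2 (0.69), Isg15 (0.66), Zbp1, Rtp4, Lgals3bp, Irf7, Stat2, Bst2, Ifi35, Parp9, Parp14 and Herc6 (0.28). Isg15 had intensities of 80.3 to 106.6 in the 4 mCh/rL arrays and 51.2 to 67.1 in the 4 GFP/fL arrays, which did not overlap (adjusted p = 1.9e-07). Within plate 1, 9 genes passed (10.3% of all genes), and within plate 2 also 9 (7.83%). These differences are small beside those of the high sub-clones, and the 2 lines stand together as the baseline.

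Genes of the pathway outside the set were taken from 2 lists, one of sensors, ligands, receptors and signaling and one of further interferon-induced genes. Of 48 further induced genes tested, 44 were higher in AxLN 2 day 7 (91.7%, beside 24.3% of all genes), 44 in AxLN-LuM 1 day 36 (91.7%, beside 22.2%) and 42 in AxLN 2 day 14 (87.5%, beside 24.6%), with none lower. In AxLN-LuM 1 day 43, 18 were higher (37.5%, beside 19%) and 6 lower (beside 22.5%), and in AxLN-LuM 1 day 14, 16 were higher (33.3%, beside 23.5%) and 5 lower (10.4%, beside 21.7%). The other 8 sub-clones had between 27 (AxLN 1 day 14, 56.2%, beside 17%) and 39 (MFP 1, 81.2%, beside 26%) higher. Between 2 and 5 were lower (4.17% to 10.4%), beside 14.5% to 28% of all genes. Of the 48, Oas1g and Iigp1 had parental intensities of 4.7 and 6.9, under the filter's 8.6. They passed it through sub-clones in which they were high, so their calls there are no independent result. The widest of both lists were Ly6e, a lipid-anchored restriction factor, from -2.19 in AxLN-LuM 1 day 14 to 2.85 in AxLN 2 day 7, and Slfn2, of the Schlafen family, from 0.39 in AxLN-LuM 1 day 14 to 4.30 in MFP 2. Oas1g ranged over 3.51, the immunity-related GTPase Irgm2 over 3.45, the chemokine Ccl5 over 3.33, the guanylate-binding protein Gbp3 over 3.29, the receptor subunit Ifnlr1 over 3.25 and Apol9b over 3.24.

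Of the 28 tested genes of the sensor, ligand, receptor and signaling list, 16 were higher in AxLN 2 day 7 (57.1%, beside 24.3% of all genes) and 3 lower (10.7%, beside 29.2%), and in AxLN-LuM 1 day 36, 16 were higher (57.1%, beside 22.2%) and 1 lower (3.57%, beside 24%). The other 11 had between 9 (32.1%, in AxLN 1 day 14 and TV-LuM 1 day 14, beside 17% and 19.3% of all genes) and 15 higher. The 15 are 53.6%, beside 24.6% to 35.6% of all genes in the sub-clones concerned. Between 1 and 7 were lower (3.57% to 25%), beside 14.5% to 28% of all genes. The kinase Jak2 and the adaptor Sting1 were higher in all 13 sub-clones. The sensor Cgas was higher in none and lower in 8. Of the ligands, Ifnb1 was below the filter, at intensities of 2.4 to 4.6 over all 48 arrays, and so were Ifna2, Ifne, Ifnk and Ifng. Ifna1, Ifna4, Ifnl2 and Ifnl3 passed the filter and were called higher in no sub-clone, and Ifna1 was called lower in 5 and Ifnl2 in 1. The receptor gene Ifnar1 was between -0.13 (AxLN 1 day 14) and 0.57 (AxLN 1 day 7).

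The 10 tested genes outside the set whose values were most like the mean of the 32 members, by Pearson r over the 13 sub-clones, were Iigp1 (0.953), Oas1g (0.918), Ddx60 (0.911), Trafd1 (0.901), Igtp (0.9), Sp100 (0.898), Gm12250 (0.894), Gbp3 (0.887), Irgm2 (0.878) and H2-T24 (0.877). Iigp1, an immunity-related GTPase, was lowest in AxLN-LuM 1 day 14 (-0.06) and highest in AxLN-LuM 1 day 36 (2.52). The parental intensities of Oas1g (4.7) and Iigp1 (6.9) were under the filter's 8.6. Both passed it through sub-clones in which they were high, so their rank here is a description. The summed intensity of the 10 leukocyte markers was between 94 (AxLN-LuM 1 day 14) and 354 (AxLN 2 day 14) in the sub-clones and between 121 and 158 in the parental lines, and Cd68, at up to 282.0, made up most of the highest sum. Ptprc, Cd3e, Ms4a1, Itgam, Adgre1, Tyrobp and Lyz2 were below the filter, although Lyz2 reached an intensity of 21.1. Csf1r, above the filter, reached 37.0. Against the parental lines, Cd68, Lyz2 and Itgam were highest in AxLN 2 day 14 and Csf1r in TV-LuM 1 day 38. Adgre1 and Tyrobp were highest in AxLN-LuM 1 day 36 and Ptprc in AxLN-LuM 1 day 14. Cd3e and Fcer1g were highest in MFP 2 and Ms4a1 in AxLN 1 day 7. The part of these markers in the interferon values was not tested. The summed mammary carcinoma markers lay between 7270 and 14769 in the sub-clones and between 8604 and 9336 in the parental lines. The fibroblast sum, most of it Pdgfra, ran between 84 and 421 in the sub-clones and was 145 in both parental lines, and the lung epithelium sum was between 31 and 37 in the sub-clones and between 34 and 38 in the parental lines. The summed endothelial markers lay between 25 and 34 in the sub-clones and between 32 and 33 in the parental lines.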

How the data were processed

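RNA of the 48 cultures was labeled as biotin-tagged cDNA and hybridized to Mouse Gene 2.1 ST arrays. The deposited values are linear intensities that the authors made with RMA in Affymetrix Expression Console (version not given in the sources used here), plate by plate, then scaled to one cumulative expression and combined. No pair of arrays was identical (0 pairs).

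Log2 was taken of the intensities. Symbols came from the platform annotation: of 41345 probe sets 23521 had 1 symbol, 1820 several and 16004 none, and 23328 of the first matched a RefSeq gene. The labels name the plate of 6 arrays; for the other 42 it follows the order of the columns, 24 to a plate. limma 3.58.1 (R 4.3.3) was fitted to 18 cells of group and plate, with 30 residual and 2.48 prior degrees of freedom, and, for sites, to the 13 sub-clone values with 9 and 3.13. p-values were adjusted (Benjamini-Hochberg) over 11562 genes, with a threshold of 0.05, and the scripts were tested on simulated data. The members, lists and tests were chosen with earlier results of these data known. All members are accounted for, the 12 with the widest range over the sub-clones with every value; others are named as examples, and outside the set the 10 genes most like the members and the 8 widest of the lists. Alternatives were quantile normalization, the own parental line, no plate term, no baseline, plate as covariate, sub-clone as random block, no filter, the mean of a gene's probe sets, log2(value + 16), leaving out arrays or sub-clones, and a replicate block. The lists held 33 and 56 measured genes, and the 8 mammary carcinoma, 7 fibroblast and 5 lung epithelium markers had 8, 2 and 1 genes above the filter. Figures used matplotlib 3.10.9.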

Additional observations from a re-analysis of the deposited data

Results flagged for a closer look

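Of 94 groups of 4 values examined for a single value far from the others (Dixon's test at the 95% level, which chance alone meets in about 5% of groups), 4 were met. In AxLN-LuM, Stat2 was far higher in AxLN-LuM 1 day 36 (1.79) than in the other 3 sub-clones (0.33 to 0.41), and Oas2 was likewise (1.91, others -0.10 to 0.20). Oas2 passed the filter only through AxLN 2 and AxLN-LuM 1 day 36, so meeting this test is for Oas2 a description. Epsti1 was far lower in AxLN-LuM 5 day 14 (-1.89, others 0.29 to 0.59). Its intensities there lay around the filter, on arrays marked as removed. On 1 mCh/rL parental array Bst2 was at 0.49, and at 0.06 to 0.13 on the other 3.

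The difference of the day 14 minus the day 7 sub-clone in AxLN was not the same under number 2 and number 1 in 21 of 32 genes by the interaction test, where 42.5% of all genes passed, and in 20 of 31 without Oas2. The test compares 4 single sub-clones through their arrays, not days. Among the widest-ranging genes the interactions were -1.71 for Cmpk2, -1.58 for Oas2, -1.56 for Bst2, -1.45 for Oas3, -1.14 for Ifit1, -1.004 for Zbp1, -0.95 for Irf7 and -0.53 for Rtp4. Oas2 passed the filter only through AxLN 2 and AxLN-LuM 1 day 36, so its values here are a description. Number and plate cannot be told apart in AxLN.

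The probe set shared by Dtx3l and Parp9, which the rule for the set leaves out, was above the parental lines in all 13 sub-clones and reached 1.29 in AxLN 2 day 7, with 1.28 in AxLN-LuM 1 day 36 and 0.25, its lowest value, in AxLN-LuM 1 day 14.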

How the results depend on the processing

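The counts of genes called stayed within 1.5 times under every alternative run except for the comparisons of sites, and no median changed sign. Of 744 values of the 12 widest-ranging genes under alternatives, 734 kept their side of the threshold, 6 lost the call, 4 gained one and 0 turned round. All 6 losses came with the own parental line as baseline: Irf7 in AxLN-LuM 1 day 14 and day 43, Oasl1 in AxLN-LuM 1 day 14, Bst2 and Oas3 in AxLN 1 day 7 and Epsti1 in MFP 2. With arrays in place of sub-clones as replicates, chosen after seeing the data, limma called 1 gene in AxLN minus MFP, 1 in AxLN-LuM minus AxLN, 1 in AxLN-LuM minus MFP, 3 in TV-LuM minus AxLN-LuM, 6 in TV-LuM minus AxLN and 2 in TV-LuM minus MFP. With the replicate block added to that fit the counts were 0, 0, 1, 1, 5 and 2 in the same order. Both fits treat arrays of 1 sub-clone as separate replicates of a site, so no site difference is read from these counts. The share of all genes called in these 2 fits is not given. In the comparisons with the parental lines and within sites the replicate block moved no count by more than 1. Arrays of the same number did not deviate together (median r 0.008, other numbers -0.003), so the numbers do not pair the arrays. The added count over genes that reach the filter in the parental lines differed from the main one by at most 1.

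With log2(value + 16), which shrinks dim genes, the medians were 0.61 (MFP 1), 0.67 (MFP 2), 0.41 (AxLN 1 day 7), 0.40 (AxLN 1 day 14), 1.55 (AxLN 2 day 7), 1.27 (AxLN 2 day 14), 0.14 (AxLN-LuM 1 day 14), 1.56 (AxLN-LuM 1 day 36), 0.31 (AxLN-LuM 1 day 43), 0.61 (AxLN-LuM 5 day 14), 0.45 (TV-LuM 1 day 14), 0.83 (TV-LuM 1 day 38) and 0.26 (TV-LuM 2 day 14). With the own parental line they were 0.96 (MFP 1), 0.88 (MFP 2), 0.48 (AxLN 1 day 7), 0.40 (AxLN 1 day 14), 1.86 (AxLN 2 day 7), 1.46 (AxLN 2 day 14), 0.0345 (AxLN-LuM 1 day 14), 1.77 (AxLN-LuM 1 day 36), 0.34 (AxLN-LuM 1 day 43) and 0.73 (AxLN-LuM 5 day 14). With only the genes above the filter they were 0.97 (MFP 1), 0.89 (MFP 2) and 1.00 (TV-LuM 1 day 38), and with the mean of probe sets 1.91 (AxLN-LuM 1 day 36) and 0.60 (TV-LuM 1 day 14). Leaving out each array gave medians of 0.53 to 0.55 in AxLN 1 day 7, 1.90 to 2.10 in AxLN 2 day 7, 0.20 to 0.24 in AxLN-LuM 1 day 14 and 2.03 to 2.13 in AxLN-LuM 1 day 36. Dim genes limit the folds, since parental intensities of Usp18, Zbp1 and Rsad2 lay near the filter and that of Oas2 lay under it. Cmpk2 lay under it in AxLN-LuM 1 day 14, and Epsti1 lay around it in AxLN-LuM 5 day 14. Ifit3 was dim on all arrays, at 8.4 to 33.5.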
